A study of Rattus norvegicus with 12 samples.

Results

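Transcript levels of 7 genes of proximal tubular sodium, bicarbonate and ammonia handling were examined in the renal cortex of Zucker rats. The genes were taken by symbol from a list of sodium-proton exchange, bicarbonate exit, sodium pump, dicarboxylate and ammonia genes, and all 7 were among the 13151 genes of the table. Male rats were compared at 32 weeks of age in 3 groups of 4: Zucker lean rats (ZL, the lean controls), Zucker fatty rats (ZF, which lack a working leptin receptor and become obese) and ZF rats given an SGLT2 inhibitor (ZF-SGLT2i). The inhibitor was canagliflozin mixed into food at 10 mg/kg/day, begun at 24 weeks of age and continued for 8 weeks. The receptor defect is carried by every cell of a ZF rat, and lean rats from the ZL cohort had undergone kidney wedge biopsies before this age. Whether the sequenced ZF rats came from the biopsied cohort or, as a caption of the study has it, from the inhibitor experiment, for which no biopsy is described, is not stated in its methods. Cohort and biopsy therefore cannot be told apart from obesity or from treatment, depending on that origin. Each library came from 1 rat and contained 8824980 to 12210257 reads on genes. Values are CPM, read counts scaled by the authors to the size of the library with a correction for its composition. The tissue was whole cortex, so fewer cells of a type and less RNA per cell cannot be told apart in any of these values.

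The proximal tubule reclaims most filtered bicarbonate by secreting protons into the lumen and moving bicarbonate out to the blood. NHE3, the apical sodium-proton exchanger encoded by Slc9a3, performs most of the proton secretion and is held in the brush border by PDZ proteins such as NHERF1, encoded by Slc9a3r1. Luminal carbonic anhydrase turns the secreted acid into water and carbon dioxide, and NBCe1, encoded by Slc4a4, carries the regenerated bicarbonate across the basolateral membrane with sodium. The sodium-potassium pump, of which Atp1b1 encodes the beta subunit, keeps cell sodium low and drives all of these steps. New bicarbonate comes from glutamine: glutaminase and glutamate dehydrogenase (Glud1, in mitochondria) release ammonia, and the remaining carbon skeleton enters gluconeogenesis through Pck1. Slc26a6 is an apical anion exchanger for chloride, oxalate, formate and bicarbonate, and Slc13a3 (NaDC3) brings dicarboxylates such as alpha-ketoglutarate into the cell from the blood side. SGLT2, the target of the inhibitor, shares the early proximal brush border with NHE3. Atp1b1 and Glud1 are expressed well beyond the proximal tubule, so the proximal label fits their role in this route and not their site of expression.

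Sequence upstream of the start site is shown for the 3 genes whose levels were lower than in ZL rats, because the comparisons with ZL turn on them. RefSeq entries matched all 7 genes by symbol or synonym (Slc9a3r1 is listed there as Nherf1), and upstream sequence was found for 5. Each run is the 250 bases before the start site in the RefSeq build GRCr8, written 5' to 3' on the gene's own strand. Glud1 lies at chr16:9646319-9646568 on the plus strand, Slc9a3r1 at chr10:100901915-100902164 on the plus strand, and Slc9a3 at chr1:30996003-30996252 on the minus strand. Capitals mark matches on either strand to 3 motifs that did not overlap in these windows. The E-box, bound by basic helix-loop-helix factors, was searched with the letters CACGTG. The GC box, a site for Sp and Krüppel-like factors, was searched with the letters GGGCGG. The CCAAT box, the core site of the nuclear factor Y complex, was searched with those 5 letters.
Glud1: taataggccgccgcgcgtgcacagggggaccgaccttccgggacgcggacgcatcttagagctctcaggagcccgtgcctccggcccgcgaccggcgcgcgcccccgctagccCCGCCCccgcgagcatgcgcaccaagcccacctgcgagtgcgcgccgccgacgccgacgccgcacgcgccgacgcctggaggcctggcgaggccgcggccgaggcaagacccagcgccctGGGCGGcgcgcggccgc
Slc9a3r1: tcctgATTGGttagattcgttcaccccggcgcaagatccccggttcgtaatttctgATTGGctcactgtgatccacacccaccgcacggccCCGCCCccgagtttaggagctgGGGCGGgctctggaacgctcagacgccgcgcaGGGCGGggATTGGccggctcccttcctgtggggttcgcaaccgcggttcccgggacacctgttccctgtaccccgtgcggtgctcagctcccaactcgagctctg
Slc9a3: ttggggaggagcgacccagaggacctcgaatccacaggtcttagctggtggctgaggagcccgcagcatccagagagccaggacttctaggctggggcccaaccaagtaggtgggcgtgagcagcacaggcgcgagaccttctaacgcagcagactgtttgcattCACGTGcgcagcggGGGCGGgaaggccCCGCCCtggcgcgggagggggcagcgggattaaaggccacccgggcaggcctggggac
Glud1 had 2 GC boxes and neither of the other motifs, Slc9a3r1 had 3 GC boxes and 3 CCAAT boxes, and Slc9a3 had 2 GC boxes and 1 E-box that begins 85 bases before the start site. Among 33469 rat upstream regions of the same length, 30.5% held a GC box, 34.0% a CCAAT box and 5.59% an E-box. The GC content was 78.8% for Glud1, 64.8% for Slc9a3r1 and 66.8% for Slc9a3, against a median of 51.2% and a highest decile of 68.4% over all regions. In the other 2 genes with sequence, Slc4a4 held none of the motifs in these bases, and Slc13a3 held 3 GC boxes and 2 E-boxes. These matches describe the letters of the window and no binding was measured.

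Levels in obese rats were lower for 2 of the 7 genes, Glud1 and Slc9a3r1, and inhibitor-treated rats were below lean rats in both. All 12 rats entered a single limma fit on log2(CPM + 1), and every log2 difference below is on that scale. The 11633 genes with at least 1 CPM in 4 or more rats were tested together, with Benjamini-Hochberg adjustment, and an adjusted p under 0.05 made a call. All 7 genes passed this filter. Between ZF and ZL, 18.8% of the genes tested were called and 2 of the 7 were (both lower), with 2 of the 7 not overlapping between groups against 19.0% of all genes. The median log2 difference was -0.012 for the 7 genes and -0.0077 for all genes. In ZF-SGLT2i against ZF, 3.15% of all genes and 0 of the 7 were called. Slc26a6 and Slc13a3 had an unadjusted p under 0.05 there (2 of the 7), edgeR called 0 of the 7 and DESeq2 called 1 (Slc13a3). In the same comparison 2 of the 7 did not overlap between groups, against 11.2% of all genes, and the median log2 difference was -0.17 for the 7 and 0.0064 for all genes. In ZF-SGLT2i against ZL, 27.4% of all genes and 3 of the 7 (Slc9a3, Slc9a3r1 and Glud1, all lower) were called, and 4 of the 7 did not overlap against 28.0%. Any 2 of these comparisons share a group of rats, so they are given side by side and not as independent results. The summed level of the 7 genes was 7789 ± 398 CPM in ZL rats, 7636 ± 385 CPM in ZF rats and 7787 ± 304 CPM with treatment (mean ± SD, n = 4 each), a sum to which Atp1b1 contributed more reads than any other of the 7.

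**Figure D1:**
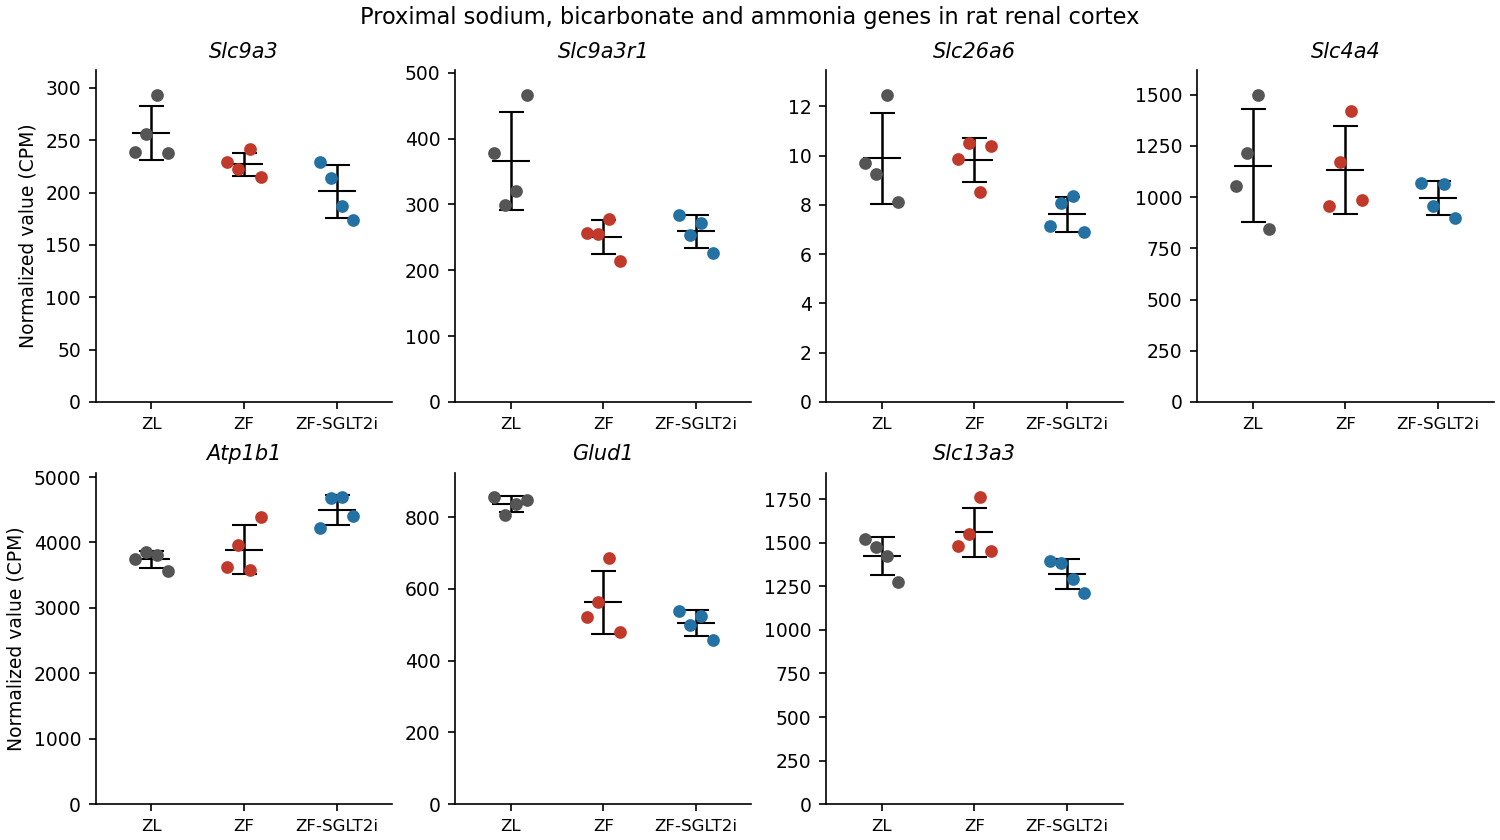
Level of each of the 7 genes in CPM (vertical axes, starting at 0) in the 4 rats of each group. Points are rats, and bars are the mean with SD. Glud1 lies between 807 and 856 CPM in ZL rats and between 457 and 686 CPM in all other rats.

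At the brush border, the group means of Slc9a3 itself descended from lean to obese to treated rats, and only the difference between the ends passed the test. Its level was 238.8, 256.2, 293.5 and 238.3 CPM in ZL rats 1 to 4, 229.0, 222.7, 241.4 and 214.8 CPM in ZF rats 2 to 5, and 229.5, 213.6, 187.4 and 174.1 CPM in ZF-SGLT2i rats 2, 3, 4 and 6. ZF rat 4 lay within the ZL range, ZF-SGLT2i rat 2 lay within the ZF range, and every ZF-SGLT2i rat lay below every ZL rat. The group means were 257 ± 25.9, 227.0 ± 11.3 and 201 ± 25.0 CPM (SD, n = 4). The log2 difference was -0.17 in ZF against ZL (95% interval -0.36 to 0.018, adjusted p = 0.19) and -0.18 in ZF-SGLT2i against ZF (-0.37 to 0.011, adjusted p = 0.32). Against ZL, Slc9a3 in ZF-SGLT2i rats fell by 0.35 on the log2 scale (SE 0.089, adjusted p = 0.010). That call was lost (adjusted p = 0.051) when values were rescaled to the total without ribosomal RNA genes. The rescaling also undoes the composition correction, and under it the median log2 difference of all genes against ZL was 0.11. The Slc9a3 call was also lost with rat number as a block (adjusted p = 0.059). No other rat has the number of ZL rat 1, ZF rat 5 or ZF-SGLT2i rat 6. Here and below, the block fit therefore compares only the remaining rats, and a call lost under it can reflect the smaller groups. In the order ZL, ZF, ZF-SGLT2i, neither difference between neighbours passed the test.

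NHERF1 transcripts were lower in obese rats, treated or not, than in lean rats. Slc9a3r1 was at 378.8, 298.6, 320.2 and 466.7 CPM in ZL rats, 256.0, 254.6, 277.3 and 214.0 CPM in ZF rats, and 284.4, 253.9, 271.7 and 226.1 CPM in ZF-SGLT2i rats. Every ZL rat was above every rat of both other groups, which overlapped each other. ZL rat 4 was the highest of the lean rats and the 2 lowest lean rats were close to the treated range. The level fell by 30.7% in ZF rats (log2 difference -0.53, SE 0.13, adjusted p = 0.011) and was 28.4% below ZL in treated rats (log2 difference -0.48, adjusted p = 0.012). Both calls were lost with rat number as a block (adjusted p = 0.071 and 0.070). From ZF to ZF-SGLT2i the log2 difference was 0.049, with a 95% interval of -0.22 to 0.32.

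Slc26a6 gave few reads, 62 to 110 per rat, and its values carry more counting error than those of the other 6 genes. Levels were 9.69, 9.28, 12.5 and 8.13 CPM in ZL rats, 9.88, 10.5, 8.55 and 10.4 CPM in ZF rats, and 7.14, 8.08, 8.35 and 6.91 CPM in ZF-SGLT2i rats. All 4 treated rats were below all 4 ZF rats, the highest treated rat by a small margin, and 1 of them was above the lowest ZL rat. The log2 difference was -0.33 in ZF-SGLT2i against ZF (95% interval -0.59 to -0.071) and did not pass adjustment (adjusted p = 0.17). Lean and obese rats had almost the same mean, 9.89 ± 1.84 and 9.83 ± 0.901 CPM.

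Other apical genes were taken from a list of exchangers, scaffolds and partners of NHE3, of which 8 of 9 were in the table (Myo6 was not). In ZF against ZL, 4 of the 8 were called lower and 1 higher, beside 18.8% of all genes called, with a median log2 difference of -0.19. Pdzk1, a brush border scaffold, was at 724 to 840 CPM in ZL rats and 536 to 683 CPM in ZF rats, and fell by 24.6% (adjusted p = 0.012). Dpp4, a brush border peptidase that forms complexes with NHE3, fell by 0.70 on the log2 scale (adjusted p = 0.021), with ZF rat 4 at 706 CPM above ZL rat 2 at 657 CPM. Pdzd3 (a PDZ scaffold) and Chp1 (a calcineurin B homologous protein that binds sodium-proton exchangers) fell by 0.29 and 0.25 on the log2 scale. The exception was Slc9a3r2, which encodes NHERF2 and rose from 45.8 to 65.6 CPM in ZL rats to 66.2 to 82.6 CPM in ZF rats (log2 difference 0.41, adjusted p = 0.028). The 2 NHERF genes thus moved in opposite directions in obese rats, Slc9a3r1 down and Slc9a3r2 up. The Slc9a3r2 call was lost in 6 of 23 alternative fits (among them those without ZL rats 1 or 3 or ZF rats 2, 3 or 5), that of Pdzd3 in 6 (ZL rats 1 or 3, ZF rats 2 or 5) and that of Dpp4 in 5 (ZL rat 1, ZF rats 3 or 5). The Pdzk1 call was lost under quantile normalization and with rat number as a block, and the Chp1 call with the total without ribosomal RNA genes. Ezr, which encodes ezrin, the link between NHERF proteins and actin, had a log2 difference of -0.018 in that comparison. Limma called 0 of the 8 in ZF-SGLT2i against ZF, where 3.15% of all genes were called. There 1 of the 8 (Slc9a8) had an unadjusted p under 0.05, and edgeR and DESeq2 also called 0.

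No difference in the basolateral bicarbonate carrier passed the test in any comparison. Slc4a4 was at 1053, 1217, 1499 and 843 CPM in ZL rats, 956, 1174, 1421 and 984 CPM in ZF rats, and 1070, 958, 1062 and 897 CPM in ZF-SGLT2i rats. The 3 groups overlapped, with the lowest and the highest value both in ZL rats. The log2 difference was -0.012 in ZF against ZL, and its 95% interval of -0.36 to 0.33 leaves room for changes of that size in either direction. In ZF-SGLT2i against ZF it was -0.17 (-0.52 to 0.17, adjusted p = 0.64). The spread among lean rats was the widest of the 7 genes, with a coefficient of variation of 24.0% in ZL, compared with 18.9% in ZF and 8.39% in ZF-SGLT2i rats.

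Of 7 other bicarbonate genes, 1 was called between ZF and ZL, and 3 between treated rats and ZL, Car4 and Car12 among them, where 18.8% and 27.4% of all genes were called. Car2, the cytosolic carbonic anhydrase, was at 356 to 362 CPM in ZL rats and 287 to 332 CPM in ZF rats (log2 difference -0.23, adjusted p = 0.036), a call that ended in 10 of the 23 alternative fits, including those without any 1 of the ZL rats and without ZF rats 2, 3 or 5. Car4, the membrane-bound carbonic anhydrase of the proximal brush border, was at 31.5 to 41.4 CPM in ZL rats, 37.1 to 45.7 CPM in ZF rats and 47.3 to 63.5 CPM in treated rats. The treated rats were thus above all others, and the log2 difference was 0.38 against ZF (adjusted p = 0.060) and 0.65 against ZL (adjusted p = 0.00058). The first passed the threshold by DESeq2, with array weights, with only those groups in the fit, with rat number as a block, and without ZL rat 3 or ZF-SGLT2i rat 6. Car12, a membrane carbonic anhydrase of distal and collecting duct cells, rose by 0.40 on the log2 scale in ZF-SGLT2i against ZL (adjusted p = 0.020). Slc4a2, a basolateral anion exchanger, and Ahcyl1, a regulator of NBCe1 known as IRBIT, had log2 differences within 0.065 of 0 in all 3 comparisons.

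The pump subunit Atp1b1 was the only 1 of the 7 genes with its highest group mean in treated rats. It was at 3741, 3854, 3809 and 3567 CPM in ZL rats, 3630, 3968, 3580 and 4388 CPM in ZF rats, and 4220, 4673, 4694 and 4402 CPM in ZF-SGLT2i rats. All treated rats were above all lean rats, while ZF rat 5 lay inside the treated range and the other ZF rats below it. The log2 difference was 0.21 in ZF-SGLT2i against ZF (95% interval -0.021 to 0.45, adjusted p = 0.34) and 0.26 in ZF-SGLT2i against ZL (0.031 to 0.50, adjusted p = 0.086). The second passed the threshold in 6 of 23 alternative fits, edgeR and DESeq2 among them.

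Of 5 other pump genes, 1 was called in ZF against ZL, a share close to the 18.8% of all genes. Fxyd2, the gamma subunit that modulates the pump, fell in ZF rats, from 83.1 to 93.4 CPM in ZL to 57.0 to 77.1 CPM (log2 difference -0.45, adjusted p = 0.0035). It was also below ZL in treated rats (log2 difference -0.35, adjusted p = 0.0077). Atp1b3, another beta isoform, had log2 differences of 0.052 in ZF against ZL, and -0.068 from ZF to treated rats.

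Ammonia generation held the largest difference among the 7 genes. Glud1 was at 856.1, 807.4, 835.6 and 848.0 CPM in ZL rats, 521.2, 563.7, 685.5 and 480.1 CPM in ZF rats, and 539.0, 500.2, 523.9 and 456.6 CPM in ZF-SGLT2i rats. Lean rats were tightly grouped, with a coefficient of variation of 2.55%, and every one was above every other rat. ZF rat 4 was nearest to them. Glud1 fell by 33.3% in ZF rats (log2 difference -0.58, SE 0.095, 95% interval -0.79 to -0.38, adjusted p = 0.0015) and was called in all 23 alternative fits. In treated rats it was 39.7% below ZL (log2 difference -0.73, adjusted p = 0.00016). The step from ZF to ZF-SGLT2i was -0.15 on the log2 scale (-0.35 to 0.058, adjusted p = 0.47), and these groups overlapped.

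The 7 other genes of glutamine uptake and use moved in both directions in ZF against ZL, with 2 called higher, 1 called lower and 4 not called by limma, where 18.8% of all genes were called. All 7 had an unadjusted p under 0.05 there, edgeR called 3 and DESeq2 4 (Glul in addition). Slc38a3 (SNAT3), the basolateral transporter that brings glutamine into late proximal cells, was at 123, 50.8, 65.2 and 208 CPM in ZL rats, 35.9, 18.7, 19.9 and 22.7 CPM in ZF rats, and 18.7, 19.6, 19.9 and 21.5 CPM in ZF-SGLT2i rats. All ZF and treated rats were below the lowest ZL rat, and the lean rats themselves varied widely. Slc38a3 fell by 1.99 on the log2 scale in ZF rats (SE 0.33, adjusted p = 0.0019). Gls2, the liver-type glutaminase, rose by 0.66 on the log2 scale (adjusted p = 0.019) at low levels, 2.68 to 5.29 CPM in ZL and 5.94 to 8.85 CPM in ZF rats. Glul, glutamine synthetase, which consumes ammonia, was at 1548 to 2967 CPM in ZL and 1176 to 1714 CPM in ZF rats (log2 difference -0.49, adjusted p = 0.070). Ogdh and Ogdhl, which encode alpha-ketoglutarate dehydrogenase and its homolog, had log2 differences of -0.20 and -0.29 without a call in ZF against ZL and were called lower in ZF-SGLT2i against ZL (-0.25 and -0.55). The Gls2 call was lost without ZF rats 3 or 5 and with rat number as a block (adjusted p = 0.10). The Ogdh call ended in 9 of 23 alternative fits (ZL rats 1, 2 or 3 and ZF-SGLT2i rats 2, 3 or 6 among them).

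Pck1, cytosolic phosphoenolpyruvate carboxykinase, went the other way from Glud1. It was at 1756, 2043, 1789 and 972 CPM in ZL rats, 2169, 2327, 2883 and 3107 CPM in ZF rats, and 3250, 4712, 4017 and 3774 CPM in ZF-SGLT2i rats, and no group overlapped another. The level in ZF rats was 1.64 times that in ZL rats (log2 difference 0.71, adjusted p = 0.029), and in treated rats 2.47 times (log2 difference 1.3, adjusted p = 0.00063). The step from ZF to ZF-SGLT2i was 0.59 on the log2 scale (0.14 to 1.04), with a limma adjusted p of 0.15, and was called by DESeq2, with array weights and without ZL rat 4. The call in ZF against ZL ended in 4 of 23 alternative fits, among them those without ZF rat 4 and without ZF rat 5.

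**Figure D2:**
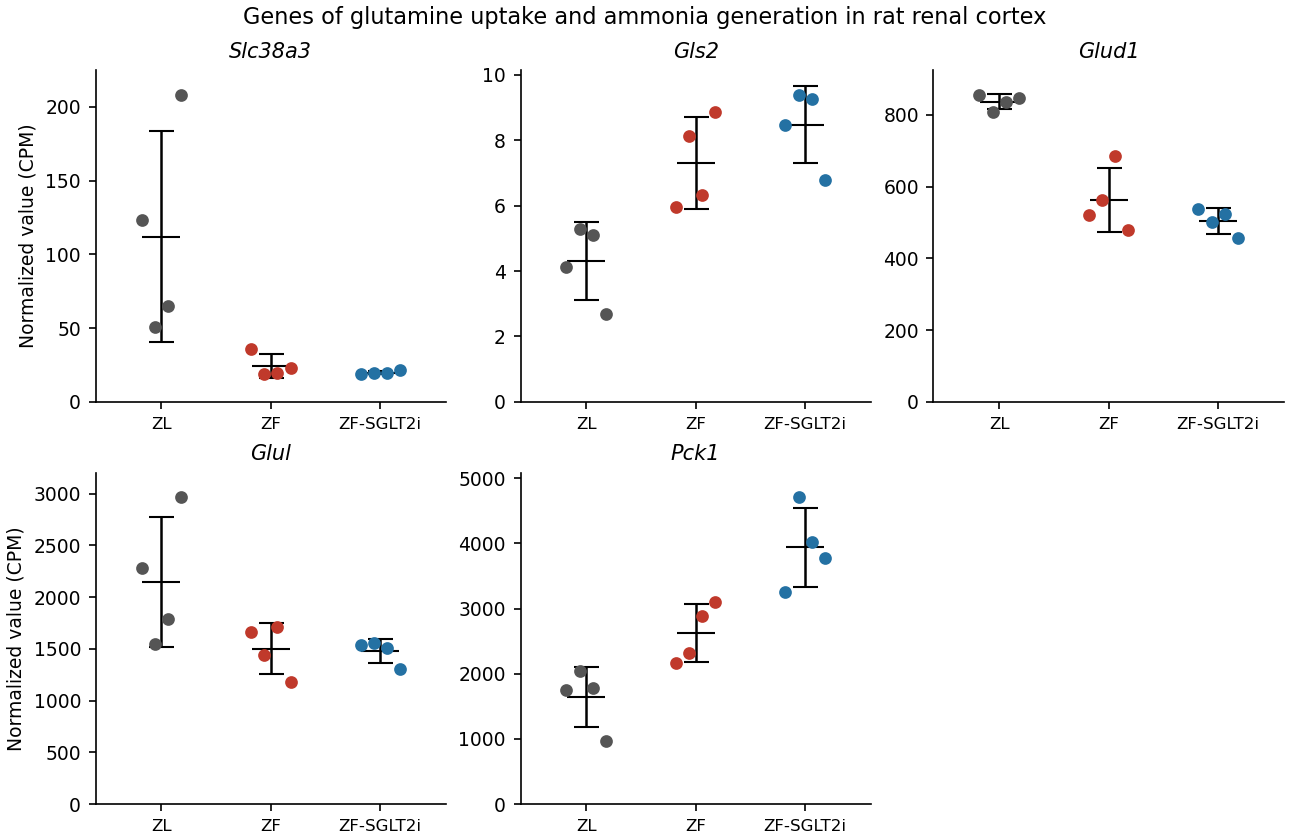
Level in CPM (vertical axes, starting at 0) of 5 genes of glutamine uptake and ammonia generation in the 4 rats of each group. Points are rats, and bars are the mean with SD. Slc38a3 and Glud1 are lower in all ZF and ZF-SGLT2i rats than in any ZL rat, and Pck1 is higher.

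Slc13a3 had its highest group mean in untreated obese rats. It was at 1520, 1478, 1423 and 1275 CPM in ZL rats, 1480, 1551, 1762 and 1450 CPM in ZF rats, and 1398, 1383, 1290 and 1210 CPM in ZF-SGLT2i rats. Every treated rat was below every ZF rat, and lean rats overlapped both other groups. The log2 difference was -0.24 in ZF-SGLT2i against ZF (95% interval -0.43 to -0.047, limma adjusted p = 0.18), and DESeq2 gave an adjusted p of 0.044. In ZF against ZL it was 0.13 (-0.061 to 0.32, adjusted p = 0.33). Quantile normalization turned this into a call (log2 difference 0.37, adjusted p = 0.0045), as did rescaling to the total without ribosomal RNA genes (0.26, with all genes at a median of 0.11, adjusted p = 0.042).

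Slc22a6, a functional partner, had the same order of group means. The protein (OAT1) takes up organic anions in exchange for the alpha-ketoglutarate that NaDC3 supplies. Slc22a6 was at 722, 707, 726 and 525 CPM in ZL rats, 759, 838, 910 and 845 CPM in ZF rats, and 609, 567, 558 and 499 CPM in ZF-SGLT2i rats. ZF rats were above all rats of both other groups, and treated rats were below all lean rats except ZL rat 4. Slc22a6 fell by 33.4% in ZF-SGLT2i against ZF (log2 difference -0.59, SE 0.10, adjusted p = 0.0084), and rose by 0.33 on the log2 scale in ZF against ZL (adjusted p = 0.040). The first call was lost with rat number as a block (adjusted p = 0.097). The second call ended in 9 of 23 alternative fits, among them those without ZL rats 1 or 4, ZF rats 3, 4 or 5, or ZF-SGLT2i rats 3 or 4. Slc22a8 (OAT3), the related exchanger of the same membrane, had log2 differences of 0.16 in ZF against ZL and 0.17 from ZF to treated rats (adjusted p = 0.54 and 0.67). Slc13a2 (NaDC1), which reclaims citrate and other dicarboxylates from the lumen, had log2 differences of 0.023 and 0.081. In ZF-SGLT2i against ZL, where 27.4% of all genes were called, limma, edgeR and DESeq2 each called 0 of the 5 other genes of this list. There 1 of the 5 (Slc22a6) had an unadjusted p under 0.05.

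Transcripts of 2 receptors that act on proximal transport, Pth1r and Agtr1a, were lower in treated than in untreated obese rats. They were the only called genes of 7 regulators in that comparison (3.15% of all genes were called), and the other 5 had positive differences. Pth1r, the parathyroid hormone receptor, through which the hormone lowers NHE3 activity, was at 332, 346, 344 and 321 CPM in ZL rats, 302, 304, 329 and 330 CPM in ZF rats, and 252, 241, 275 and 244 CPM in ZF-SGLT2i rats. Treated rats were below all others, and Pth1r fell by 0.32 on the log2 scale against ZF (SE 0.059, adjusted p = 0.0091). That call was lost with rat number as a block (adjusted p = 0.12). Agtr1a, the angiotensin II type 1a receptor, which raises NHE3 and NBCe1 activity, was at 52.9, 52.2, 52.8 and 44.6 CPM in ZL rats, 42.2, 48.2, 60.3 and 36.4 CPM in ZF rats, and 29.9, 29.6, 32.8 and 26.2 CPM in ZF-SGLT2i rats. It too was lowest in every treated rat, and it fell by 35.0% against ZF (log2 difference -0.62, SE 0.12, adjusted p = 0.017), a call lost without ZF rat 3 or ZF-SGLT2i rat 6. Ednrb, the endothelin B receptor, rose in ZF rats, from 35.6 to 61.5 CPM in ZL to 62.5 to 69.5 CPM (log2 difference 0.61, adjusted p = 0.0061). The Ednrb call was lost with rat number as a block (adjusted p = 0.060). Sgk1, a kinase that activates NHE3, ranged from 262 to 1027 CPM among ZL rats alone and was not called (log2 difference -0.56 in ZF against ZL, adjusted p = 0.34).

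**Figure D3:**
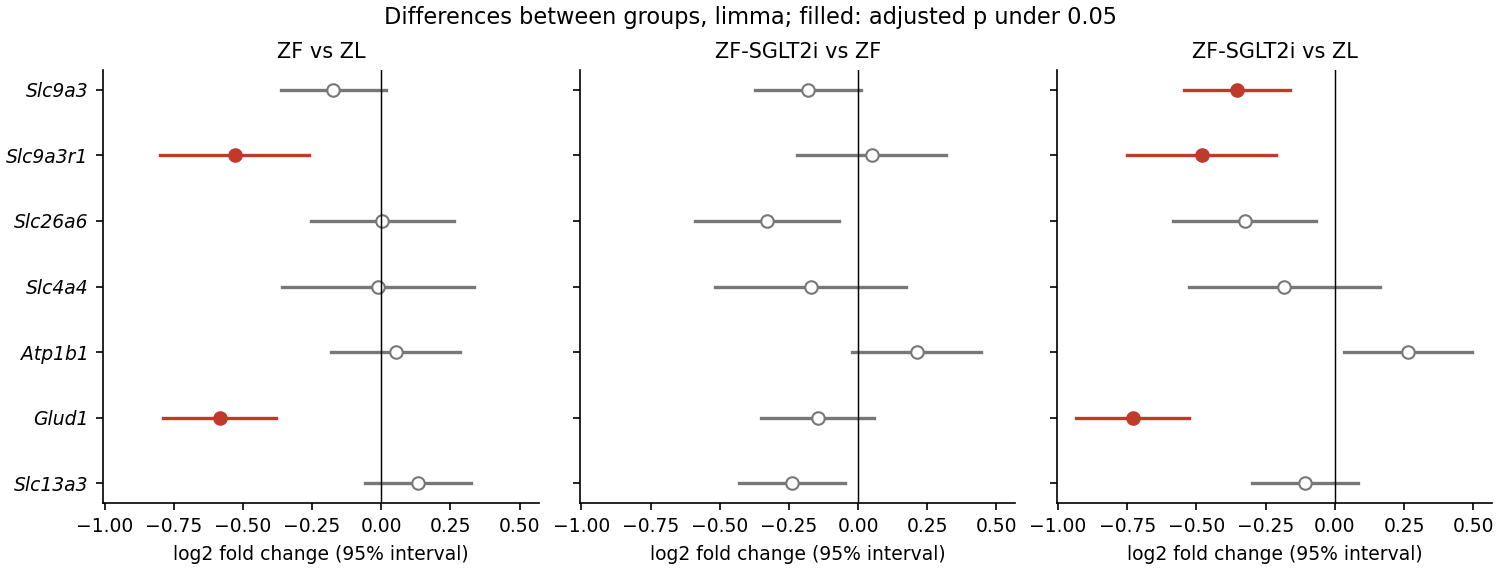
Differences of the 7 genes in the 3 comparisons, as log2 fold change on log2(CPM + 1) (horizontal axes) with the 95% interval from limma. Filled red points have an adjusted p under 0.05: Slc9a3r1 and Glud1 in ZF against ZL, none in ZF-SGLT2i against ZF, and Slc9a3, Slc9a3r1 and Glud1 in ZF-SGLT2i against ZL.

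Across the 6 pathway lists together, 39 of 40 genes other than the 7 were in the table, and all 39 were tested. Obese rats had 5 of them higher and 7 lower than lean rats, with a median log2 difference of -0.030, and these 12 of 39 stand beside 18.8% of all genes tested. In ZF-SGLT2i against ZF, 3 were called, Slc22a6, Agtr1a and Pth1r, all lower, while 23 of the 39 had a positive difference and the median was 0.053 (3.15% of all genes were called). In ZF-SGLT2i against ZL, 7 were higher and 9 lower, where 27.4% of all genes were called. The number called in ZF against ZL depended on single rats, since it was 5 without ZF rat 5.

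Within each group the same rats recurred at the ends of the range across the 7 genes. ZF rat 4 was the highest ZF rat for 5 of the 7 genes (Slc9a3, Slc9a3r1, Slc4a4, Glud1 and Slc13a3) and the lowest for Slc26a6 and Atp1b1. ZF-SGLT2i rat 2 was the highest treated rat for the same 5 genes, and ZF-SGLT2i rat 6 was the lowest for 6, all but Atp1b1. Among lean rats, ZL rat 4 was the lowest for 5 genes and the highest for Slc9a3r1. Both ZF rat 4 and ZF-SGLT2i rat 2 were the lowest of their groups for Atp1b1.

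The summed level of proximal tubule markers was lower in each obese rat, treated or not, than in any lean rat. Of 16 listed markers 15 were in the table (Acsm2 was not), none was at 0 in any rat, and Lrp2, the endocytic receptor megalin, was the most abundant. Their summed level was 26085, 23959, 26057 and 24747 CPM in ZL rats, 18882, 18461, 22338 and 17101 CPM in ZF rats, and 19250, 17206, 17710 and 14795 CPM in ZF-SGLT2i rats. ZF rat 4 was again the highest ZF rat and ZF-SGLT2i rat 6 the lowest treated rat. Relative to ZL, 7 of the 15 markers were called lower in ZF rats and 0 higher, beside 18.8% of all genes called (median log2 difference -0.44), and 8 were not called, Lrp2 itself among them (-0.47, adjusted p = 0.073). The 7 were Slc5a1, Slc27a2, Aqp1, Miox, Slc22a12, Slc17a3 and Ggt1 (Aqp1 was lost in 8 of 23 alternative fits and Ggt1 without ZF rat 3), and their part in the lower Glud1 and Slc9a3r1 was not tested. Slc5a2, which encodes SGLT2, was not called in any comparison and had log2 differences of 0.14 in ZF against ZL, and -0.19 from ZF to treated rats.

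Most markers of injured tubule cells were higher in obese rats. All 12 were in the table, none was at 0 in any rat, and 9 rose in ZF against ZL, where 18.8% of all genes were called, with a median log2 difference of 0.91. Of the other 3, which were not called, 2 had a negative difference. Their summed level was 539 to 668 CPM in ZL rats, 2343, 1014, 1793 and 879 CPM in ZF rats, and 1486, 1470, 1127 and 743 CPM in ZF-SGLT2i rats, every one above the lean range. Spp1, osteopontin, was the most abundant and rose by 1.98 on the log2 scale (adjusted p = 0.011). ZF rats 2 and 4 carried the highest sums, and ZF rat 4 was also the rat with the highest Glud1 of its group. In ZF-SGLT2i against ZF, 1 of the 12 was called, where 3.15% of all genes were called, and 11 of the 12 had a negative difference. The called gene, Vcam1, was lower and lost its call in 7 of 23 alternative fits. The part of injured cells in the levels of the 7 genes was not tested.

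Markers of the distal nephron, where the pump is also expressed, were read beside Atp1b1. All 10 collecting duct markers were in the table and none was at 0, and their summed level was 2564 ± 493 CPM in ZL rats, 2942 ± 478 CPM in ZF rats and 3792 ± 264 CPM in treated rats (SD, n = 4). In ZF-SGLT2i against ZF all 10 had a positive difference (median log2 difference 0.31) and 1 was called, Aqp2, the water channel of principal cells (0.62, adjusted p = 0.0495). That call ended in 15 of 23 alternative fits, edgeR among them. Hsd11b2 was the most abundant of the list, and 7 of the 10 were called higher in ZF-SGLT2i against ZL (3.15% of all genes were called in the first comparison and 27.4% in the second). Of thick limb and distal markers 9 were in the table (Pvalb was not), with Umod the most abundant. In ZF against ZL 2 were called, both lower (Cldn10 and Egf), where 18.8% of all genes were called, and 4 of the 9 had a positive difference. In ZF-SGLT2i against ZF 1 was called (Cldn10, lower), where 3.15% of all genes were called, and 5 of the 9 had a positive difference. The Cldn10 call ended in 8 of 23 alternative fits in the first comparison (ZL rats 1, 3 or 4 and ZF rats 3 or 5 among them) and in 5 in the second (without ZF rats 2 or 4 or ZF-SGLT2i rats 2, 3 or 6). In ZF-SGLT2i against ZL, 3 of the 9 were called lower and 1 higher (Slc12a3), where 27.4% of all genes were called. Slc12a3 was at 1258 to 2115 CPM in ZL rats, 1826 to 2784 CPM in ZF rats and 2812 to 3151 CPM in treated rats. That call held in all 23 alternative fits. The summed level of the 9 markers was 10092 ± 173, 9512 ± 709 and 9371 ± 554 CPM in ZL, ZF and ZF-SGLT2i rats. The part of these cells in the level of Atp1b1 was not tested.

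**Figure D4:**
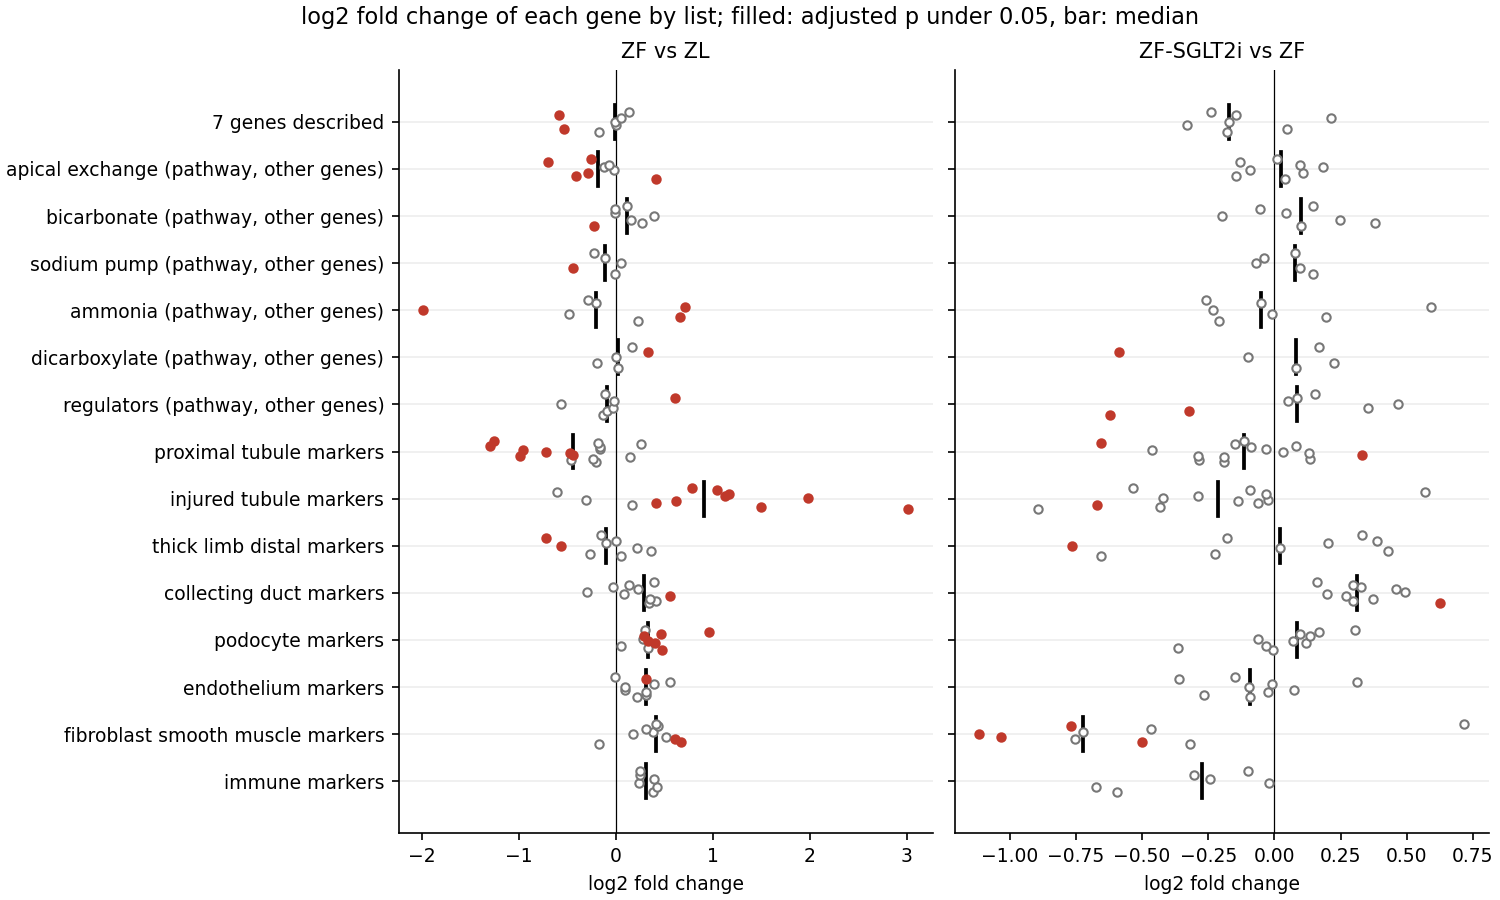
log2 fold change (horizontal axes) of each tested gene of the pathway and marker lists, on the left for ZF against ZL and on the right for ZF-SGLT2i against ZF, with 1 list per line, the median as a bar and genes with an adjusted p under 0.05 filled. In ZF against ZL the median is -0.44 for proximal tubule markers and 0.91 for injured tubule markers.

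The genes whose levels ran most like each of the 7 over the 12 rats were picked by Pearson correlation among the 8625 genes that averaged 10 CPM or more, and are given as a description, since the rats share groups and libraries. Glud1 was followed most closely by Slc29a3, a nucleoside transporter of lysosomes (r = 0.987), and Ces1f, a carboxylesterase (r = 0.984). Slc29a3 was at 113 ± 9.15 CPM in ZL rats, 72.4 ± 12.3 CPM in ZF rats and 62.7 ± 6.93 CPM in treated rats. For Slc9a3r1 they were Coq2, an enzyme of ubiquinone synthesis (r = 0.984), and Abhd14b (r = 0.978), and for Slc9a3 Ahr, the aryl hydrocarbon receptor (r = 0.940), and Ctns, the lysosomal cystine transporter (r = 0.937). Slc4a4 ran most like Ctsa, a lysosomal protease (r = 0.953), and Tcn2, the vitamin B12 carrier transcobalamin (r = 0.936). Slc13a3 ran close to Apoe (r = 0.942), Slc26a6 to Ptpdc1 (r = 0.933) and Zmynd15 (r = 0.921), and Atp1b1 to Rab15 (r = 0.945) and Nudt4 (r = 0.945). Nudt4 rose in ZF-SGLT2i against ZF (log2 difference 0.48, adjusted p = 0.021), from 740 ± 102 to 1025 ± 70.9 CPM, a call lost without ZF rats 2 or 4 or ZF-SGLT2i rats 3, 4 or 6.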

How the data were processed

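The deposited table held normalized signal values for 13151 genes in renal cortex RNA of 12 rats. Libraries were depleted of ribosomal RNA and kept the strand. Per the labels, the processing notes of the submitters name Trimmomatic 0.38, RSEM 1.3.0, Bowtie2, edgeR and the build rn6. Every value was a whole multiple of 1 constant per rat, and the constants matched edgeR CPM with TMM factors, so read counts were recovered (100% whole within 1e-06 reads). Depth was 8824980 to 12210257 reads per rat, with 7.25% to 15.2% of them on ribosomal RNA genes. Every gene of the table had at least 12 reads over all rats, and 0 columns were left unused. Between rats of a group the chi-square per gene was 5.63 to 52.5, so no library was a repeat of another.

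The 3 comparisons were fitted in limma 3.58.1 (R 4.3.3, eBayes with trend, two-sided) on log2(value + 1), after genes with fewer than 4 rats at a value of 1 or more had been left out, and p-values were adjusted by the Benjamini-Hochberg method. Each fit was repeated with a pseudocount of 0.1, without the filter, with a mean of 10 or more, with median ratio scaling, quantile normalization, the total without ribosomal RNA genes, only 2 groups in the fit, a term for the rat number, array weights, edgeR 4.0.16 and DESeq2 1.42.0 on recovered counts, and without each rat in turn. The fits were tested on simulated data, of which no result is reported here. Named were the 7 genes, pathway genes called or most abundant, of each marker list the most abundant gene and those called in ZF-SGLT2i against ZF, and for each of the 7 the 2 genes with the highest correlation, with further list genes given as examples after their values were seen. Some genes that these rules name are counted but not reported here. The 7 genes and all lists were chosen with earlier results of these data known. Promoters and gene names are from RefSeq GRCr8, and since the files' build differs, no other position is given. The limma p-values set each group difference against the spread between rats within groups, pooled over the groups and moderated across genes. They do not cover differences of cohort or biopsy between groups.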

Additional observations from a re-analysis of the deposited data

Results flagged for a closer look

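In 5 of 78 groups of 4 rats (26 named genes in 3 groups) a single rat stood apart from the other 3 by Dixon's test, where chance alone would give about 3.9. ZL rat 4 was the low rat in 3 of them. It had 525 CPM of Slc22a6 against 707 to 726 CPM in the other lean rats, 484 CPM of Slc22a8 against 824 to 878 CPM, and 44.6 CPM of Agtr1a against 52.2 to 52.9 CPM. ZF-SGLT2i rat 6 had 420 CPM of Dpp4 against 542 to 558 CPM in the other treated rats, and ZF rat 3 had 62.5 CPM of Ednrb against 68.7 to 69.5 CPM in the other ZF rats. None of the 7 genes of the report was among these.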

How the results depend on the processing

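Over the 7 genes in each comparison, the called results of the other genes and the 23 alternatives, 2988 values kept their direction and side of the threshold, 306 lost a call, 12 gained one (all among the 7) and 22 changed sign. Gains of calls by other genes were not counted. Glud1 was called against ZL, in ZF as in ZF-SGLT2i rats, in every alternative, and Slc9a3r1 in all but 1. The sign changes were in differences that limma had not called. In ZF against ZL, Slc26a6 was -0.035 under quantile normalization, Slc4a4 was 0.19 under quantile normalization, 0.11 with the total without ribosomal RNA genes and 0.0018 with array weights. Against ZL in ZF-SGLT2i, Slc4a4 was 0.027 under quantile normalization, and Slc13a3 was 0.15 under it and 0.0051 with the total without ribosomal RNA genes. That total also undoes the composition correction, and it put the median of all genes at 0.11 in both comparisons with ZL. The share of calls that were higher rose with it from 43.6% to 78% in ZF and from 45.3% to 72.4% in ZF-SGLT2i rats. Quantile normalization gave 53.9% in ZF rats. Array weights gave 689 called genes, 5 of them from the pathway lists, and DESeq2 641, again 5, in ZF-SGLT2i against ZF, where DESeq2 called 1 of the 7. In ZF-SGLT2i against ZL, 5 of the 7 were called under quantile normalization and 5 with array weights. Those fits called 3075 and 4030 of all genes, and the main fit 3184. The cause of these changes was not tested.

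Leaving out 1 rat at a time gave 1384 (without ZL rat 1) to 2453 (without ZF rat 4) called genes in ZF against ZL and 5 (without ZF rat 5) to 12 pathway genes. In ZF-SGLT2i against ZF the number ran from 176 when ZF-SGLT2i rat 3 was left out to 569 when ZF rat 5 was. In ZF against ZL the log2 difference was -0.077 to 0.11 for Slc26a6, -0.15 to 0.12 for Slc4a4 and -0.0074 to 0.090 for Atp1b1, and in ZF-SGLT2i against ZF it was -0.024 to 0.11 for Slc9a3r1.

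Rat numbers recur across groups, and same-numbered rats deviated from their group means with correlations of -0.376 to 0.253. Of 9 rats, 1 correlated best with its own number. What the number stands for is not stated, and whether same-numbered rats shared anything else was not tested. The replicate block in effect leaves ZL rat 1, ZF rat 5 and ZF-SGLT2i rat 6 out of the comparisons, since no other rat has their numbers. With these smaller groups it gave 807 called genes in ZF against ZL, with 1 of the 7 (Glud1) and 3 pathway genes among them. It gave 223 in ZF-SGLT2i against ZF, with 0 of the 7, and 1502 in ZF-SGLT2i against ZL, with 1 of the 7 (Glud1). It also ended the calls of Slc22a12, Ggt1 and Nphs1 in ZF against ZL, Nudt4 in ZF-SGLT2i against ZF and Car12 in ZF-SGLT2i against ZL. Under it Slc26a6, Slc4a4 and Atp1b1 were at -0.026, 0.017 and -0.0075 in ZF against ZL. Slc26a6 had 62 reads in the lowest library, the fewest of the 7 genes, and no limit of detection was computed.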

Other observations

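Markers of other cell types of the cortex were read in the same way. Of all genes, 18.8% were called between ZF and ZL rats, 3.15% between treated and untreated obese rats and 27.4% between treated and lean rats. Podocyte markers were higher in obese rats, with 6 of 10 called in ZF against ZL (Nphs1, Podxl, Synpo, Plce1 and Cdkn1c among them, median log2 difference 0.33) and 0 of 10 called in ZF-SGLT2i against ZF by limma, edgeR or DESeq2 (2 had an unadjusted p under 0.05). Podxl, the most abundant, was at 650 to 881 CPM in ZL rats and 808 to 1107 CPM in ZF rats, and its call was lost in 8 of 23 alternative fits, that of Synpo in 4 (without ZL rat 1 or ZF rats 2 or 5, and with the replicate block) and that of Plce1 in 3 (without ZL rat 1 or ZF rat 2, and with the block). Of 9 fibroblast and smooth muscle markers, 2 were higher in ZF against ZL (Pdgfrb and Col1a1), and 4 were lower in treated against untreated obese rats (Pdgfrb, Col3a1, Dcn and Tagln, median of the list -0.72). Dcn, the matrix proteoglycan decorin, was at 113, 76.8, 119 and 58.3 CPM in ZF rats and 45.4, 35.2, 40.6 and 39.9 CPM in ZF-SGLT2i rats, which lay below all ZF rats (log2 difference -1.11, adjusted p = 0.0083). Col3a1 fell by 1.03 on the log2 scale in the same comparison (adjusted p = 0.0055), and both calls held in all 23 alternative fits. The Tagln call ended in 10 of them (the replicate block and each fit without 1 rat except ZL rats 3 and 4 and ZF rat 5) and the Pdgfrb call in 6 (without ZF rats 2, 3 or 4 or ZF-SGLT2i rats 2, 3 or 4). In ZF against ZL, the Col1a1 call ended in 9 (ZL rats 1, 3 or 4, ZF rats 2 or 4 and ZF-SGLT2i rats 2 or 3 among them) and the Eng call in 7 (ZL rats 1, 3 or 4 and ZF rats 2 or 3 among them). Pdgfra was the most abundant of that list. Endothelial markers, led by Kdr, had 1 of 9 called in ZF against ZL (Eng, higher) and 0 of 9 from ZF to treated rats, where 2 had an unadjusted p under 0.05, edgeR called 0 and DESeq2 1 (Eng). Of 6 immune markers tested, limma and edgeR called 0 in the 3 comparisons and DESeq2 called 1 (Ptprc, in treated against untreated obese rats), and 2, 2 and 0 had an unadjusted p under 0.05 in ZF against ZL, treated against ZF and treated against ZL. Their median log2 difference was 0.32 in ZF against ZL, and -0.27 from ZF to treated rats. Cd74 was the most abundant, and Cd3e and Nkg7 were under the filter on low values.

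The share of reads on ribosomal RNA genes, left after depletion, ran from 7.25% to 12.0% in lean rats, from 8.82% to 12.0% in untreated obese rats and from 11.5% to 15.2% in treated rats. Its ranges in treated and lean rats overlapped, and its part in the levels of the 7 genes was not tested. Rescaling to the total without those genes also undoes the composition correction, so it cannot isolate that part.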
